A study of Mus musculus with 69 samples.

Results

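The mitochondrially encoded genes of the mouse are the 37 genes carried by the mitochondrial chromosome, taken here as every gene whose symbol in the deposited tables begins with mt-. They comprise 13 protein genes, 2 ribosomal RNAs and 22 transfer RNAs, out of 56783 genes listed in at least 1 of the 4 tables. All 37 were listed in each table, but only 9 of them had a value above 0 in every library.

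The mitochondrial chromosome is transcribed from both of its strands into long precursors that run across many genes. The transfer RNAs lie between most of the other genes, and cutting them out releases the messenger and ribosomal RNAs, most of which then receive a short tail of adenines. The protein genes encode core subunits of the respiratory chain and of ATP synthase, which are completed by subunits encoded in the nucleus. Proximal tubule cells are packed with mitochondria, since they reabsorb most of the filtered sodium and rely on oxidative metabolism.

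The RNA-seq libraries came from tubules dissected by hand from kidneys of male wild-type C57BL/6 mice from Taconic, operated on at 7 weeks of age. A kidney was excised (unilateral nephrectomy, UNx) or the surgery was a sham, and either segment S1 of the proximal tubule (PT-S1) or cortical collecting duct (CCD) was collected 24 h or 72 h afterwards. For PT-S1, 3 sham animals gave 8 libraries and 4 UNx animals gave 9 at 24 h, and 5 animals of each arm gave 12 at 72 h. For CCD, 4 sham animals gave 8 libraries and 3 UNx animals gave 7 at 24 h, and 4 animals of each arm gave 7 sham and 6 UNx libraries at 72 h. A library is named below by its treatment, animal and library number, as in Sham3_2. The reverse transcription was primed on polyadenylated RNA, so each value reflects the adenine tails of a transcript as well as its amount. Values are TPM (a measure of transcript abundance scaled by gene length and to a fixed total per library), and the depth of the libraries is unknown.

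The leading markers matched the dissected segments, while some markers of other segments had values too. In PT-S1 the group means were 6992 to 9082 TPM for Slc34a1, a phosphate transporter, and 1989 to 2915 TPM for Slc5a2, a glucose transporter, while Aqp2, the water channel of the collecting duct, was at 0.307 TPM or less. In CCD the Aqp2 means were 14911 to 41324 TPM and those of Slc5a2 were 0.594 to 1.77 TPM. Of the 69 libraries, 5 had a median correlation with the other libraries of their table below 0.92 and are treated below as standing apart. They were Sham1_1 and Sham3_2 of PT-S1 at 24 h, UNx1_2 and UNx2_2 of PT-S1 at 72 h, and Sham1_2 of CCD at 72 h.

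The 37 genes fell into a detected and an undetected set, and the undetected protein genes lay next to each other on the chromosome. The 2 ribosomal RNAs and 7 protein genes (mt-Nd1, mt-Nd2, mt-Nd4, mt-Nd5 and mt-Nd6 of complex I, mt-Cytb of complex III and mt-Co1 of complex IV) were above 0 in all 69 libraries. The other 6 protein genes were listed at 0 in all 69. They were mt-Co2 and mt-Co3 of complex IV, mt-Atp6 and mt-Atp8 of ATP synthase, and mt-Nd3 and mt-Nd4l of complex I. On the GENCODE M21 map of the GRCm38 build these 6 were consecutive among the protein genes, between mt-Co1 and mt-Nd4, with no detected protein gene among them.

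That stretch of the mitochondrial chromosome has a copy in the nuclear genome, on the minus strand of chromosome 1, which the annotation divides into separate genes. Gm28661 matched mt-Co2 at 681 of 681 bases, Gm10925 matched mt-Atp6 at 678 of 678, Gm28437 matched mt-Co3 at 783 of 783 and Gm10222 matched mt-Nd4l at 294 of 294. Gm28438 matched mt-Nd3 at 344 of 345 bases, the exception being T3C, counted from the 5′ end of mt-Nd3. The starts of that gene and of its copy are shown because this is the only base that tells the aligned bases apart, and the capital letter marks it. The first line is chrM:9459-9548 on the plus strand and the second is chr1:24613030-24613119 on the minus strand, both in GRCm38.
mt-Nd3: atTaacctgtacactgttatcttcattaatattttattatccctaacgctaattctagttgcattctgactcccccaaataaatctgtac
Gm28438: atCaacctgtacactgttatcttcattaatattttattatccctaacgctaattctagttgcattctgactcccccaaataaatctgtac

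The share of a gene's sequence that another annotated gene repeats was counted in windows of 50 bases. Of the windows of the undetected genes, 100% were repeated for mt-Co2, 99.9% for mt-Co3, 99.5% for mt-Atp6, 98.8% for mt-Nd4l and 98.0% for mt-Nd3. Among the detected protein genes the share was 62.2% for mt-Nd4, 51.1% for mt-Co1, 8.19% for mt-Nd2, 7.61% for mt-Nd5 and 0% for mt-Nd1, mt-Nd6 and mt-Cytb. It was 1.04% for mt-Rnr2 and 0% for mt-Rnr1. These 5 undetected genes thus had the highest repeated shares, and the detected genes that lie beside them, mt-Nd4 and mt-Co1, came next. The copy of mt-Nd4, Gm28439, matched its first 876 of 1378 bases without a difference, and the copy of mt-Co1, Gm29216, matched 486 of 492 bases at its 3′ end. How the authors' counting treated reads that fit both a gene and its copy is not given in the sources used here, and whether it produced the values of 0 was not tested. For mt-Nd4 and mt-Co1 the levels are uncertain for the same reason.

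**Figure D1:**
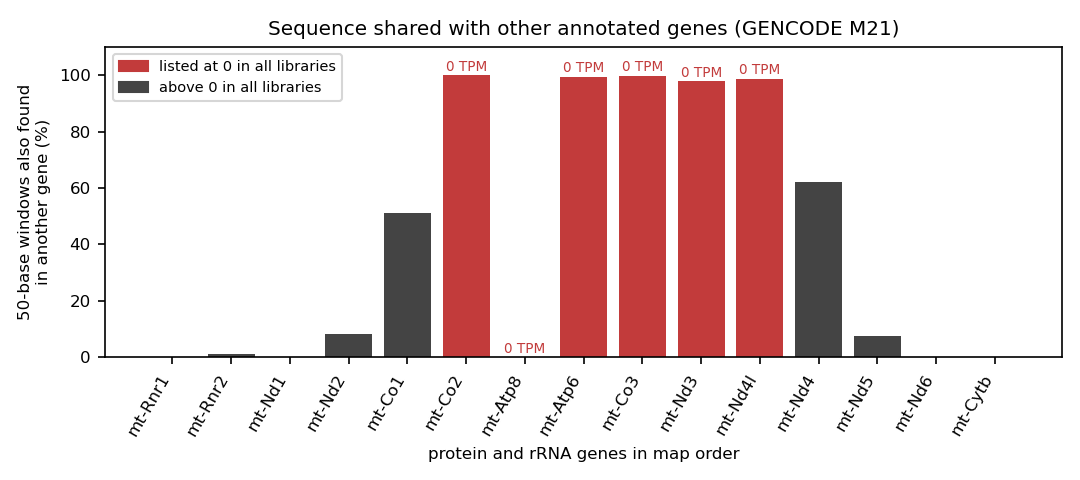
Share of 50-base windows of each mitochondrial protein gene and ribosomal RNA that another annotated gene repeats (percent), with genes in their order on the chromosome and marked by whether they had values in the 69 libraries. The undetected genes other than mt-Atp8 sit at 98.0% to 100%, while mt-Atp8 sits at 0%.

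mt-Atp8, which encodes a short subunit of ATP synthase, did not follow the other 5. It was listed at 0 in every library although 0% of its windows were repeated in another annotated gene. Its transcript of 204 bases overlaps mt-Atp6 over its last 43 bases, and on chromosome 1 the matching place is a gap of 233 unannotated bases between Gm10925 and Gm28661. The whole transcript is shown because it is the undetected gene with no annotated copy, at chrM:7766-7969 on the plus strand of GRCm38, with the bases that also belong to mt-Atp6 in capitals.
mt-Atp8: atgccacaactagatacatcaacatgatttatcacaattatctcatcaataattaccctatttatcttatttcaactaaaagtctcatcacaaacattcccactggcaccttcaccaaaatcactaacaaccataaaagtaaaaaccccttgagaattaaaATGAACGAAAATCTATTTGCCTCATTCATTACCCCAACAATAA

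Of the nuclear copies described above, only that of mt-Nd3 was above 0 in most libraries. Gm28661, Gm10925, Gm28437, Gm10222 and Gm28439 were listed at 0 in all 69 libraries, and Gm29216 reached 0.38 TPM in 1 of the 2 libraries where it was above 0. Other annotated genes that repeat windows of mt-Co1 and mt-Co2 had low values: Gm13340 was above 0 in 69 of 69 libraries, at up to 3.48 TPM, and Gm13341 in 68 of 69, at up to 4.72 TPM. Gm28438 was also above 0 in 68 of 69 libraries. Its medians over libraries were 2.82 TPM in PT-S1 at 24 h, 3.80 TPM in PT-S1 at 72 h, 1.61 TPM in CCD at 24 h and 2.03 TPM in CCD at 72 h. Its highest values were 31.8 TPM in UNx2_2, 28.1 TPM in UNx1_2 and 21.7 TPM in Sham3_1, all of PT-S1 at 72 h. The gene and its copy thus stood at 0 and above 0, although the aligned bases differ at 1 position. Which base these mice carry in mt-Nd3 was not tested.

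The 22 transfer RNAs were almost all undetected, with 21 listed at 0 in every library. The exception was mt-Tl1, a leucine transfer RNA, at 30.4 TPM in library Sham1_3 of PT-S1 at 24 h and 0 in the other 68. Transfer RNAs are short and are not polyadenylated in their mature form. In GRCm38 no base separates mt-Tl1 from mt-Rnr2 before it or from mt-Nd1 after it. The junction is shown because the genes on either side of it were among those with the highest values, with the last 30 bases of mt-Rnr2, mt-Tl1 in capitals and the first 30 bases of mt-Nd1, at chrM:2646-2780 on the plus strand.
junction: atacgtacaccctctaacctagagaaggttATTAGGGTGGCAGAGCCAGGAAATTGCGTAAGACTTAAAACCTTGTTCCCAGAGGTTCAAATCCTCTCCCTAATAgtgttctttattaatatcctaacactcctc

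The detected genes were among the most abundant transcripts of both segments. By TPM, mt-Cytb had a median rank of 3 among 55487 genes in PT-S1 at 24 h and of 2 among 53700 genes at 72 h, and a median rank of 4 in CCD at both times. Over libraries mt-Nd1 had a median rank of 5 and 4.5 in PT-S1 and of 10 and 8 in CCD, at 24 h and 72 h. mt-Rnr1, the small ribosomal RNA, was the lowest placed, with median ranks from 65 in PT-S1 at 72 h to 345 in CCD at 24 h. The 7 protein genes together took 4.03% ± 1.24 (SD, n = 3 animals) of all TPM in PT-S1 sham at 24 h and 8.24% ± 4.48 (n = 5) at 72 h. In CCD sham they took 2.04% ± 0.152 (n = 4) at 24 h and 2.20% ± 0.501 (n = 4) at 72 h. The lowest sham animal in PT-S1 was at 3.06% at 24 h and 4.39% at 72 h, above the highest in CCD, at 2.22% and 2.69%. The segments were deposited in separate tables, so this difference in level is given without a test.

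mt-Cytb, the only mitochondrially encoded subunit of complex III, had the highest group means of the detected protein genes. In PT-S1 at 24 h mt-Nd1 was above it in UNx animal 1 and nearly equal to it in UNx animal 4. In PT-S1 at 24 h its sham animals were at 9995, 13485 and 17090 TPM and its UNx animals at 13667, 26177, 19059 and 12507 TPM. At 72 h in PT-S1 the sham animals were at 38132, 18426, 57401, 22014 and 15806 TPM and the UNx animals at 26352, 19683, 23745, 12983 and 15469 TPM. The groups overlapped at both times, and the sham animals 1 and 3 at 72 h were far above the rest. In CCD at 24 h the sham animals were at 8185, 6820, 7653 and 8004 TPM and the UNx animals at 5189, 7353 and 6479 TPM. In CCD at 72 h the sham animals were at 7511, 6293, 8533 and 9369 TPM and the UNx animals at 6729, 7160, 8600 and 9659 TPM. In CCD, too, the groups overlapped.

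The genes kept nearly the same order of level in both segments, on a scale that accounts for gene length. mt-Cytb was above mt-Nd1 in 35 of 41 PT-S1 libraries and in all 28 CCD libraries, by a median of 1.24 times in PT-S1 and 1.54 times in CCD. Most of the exceptions were UNx libraries of PT-S1 at 24 h. mt-Nd1, a core subunit of complex I, was above mt-Co1, the catalytic subunit of complex IV, in 40 of 41 and 28 of 28 libraries. Its lead over mt-Co1 had a median of 2.02 times in PT-S1 and 1.25 times in CCD. The remaining detected complex I genes lay below these. mt-Nd4 was above mt-Nd5 in 39 of 41 and 28 of 28 libraries, and mt-Nd5 was above mt-Nd6 in 37 of 41 and 22 of 28. mt-Nd2 was above mt-Nd4 in 31 of 41 PT-S1 libraries but in only 3 of 28 CCD libraries, so these neighbours changed places between segments. The levels of mt-Nd4 and mt-Co1 are uncertain because of their repeated sequence, so their places in this order are uncertain too. mt-Nd6 is the single protein gene on the other strand, and its 3′ end overlaps that of mt-Nd5 by 14 bases. The kit does not mark strand, so reads of mt-Nd6 and of antisense RNA from the opposite strand cannot be told apart.

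**Figure D2:**
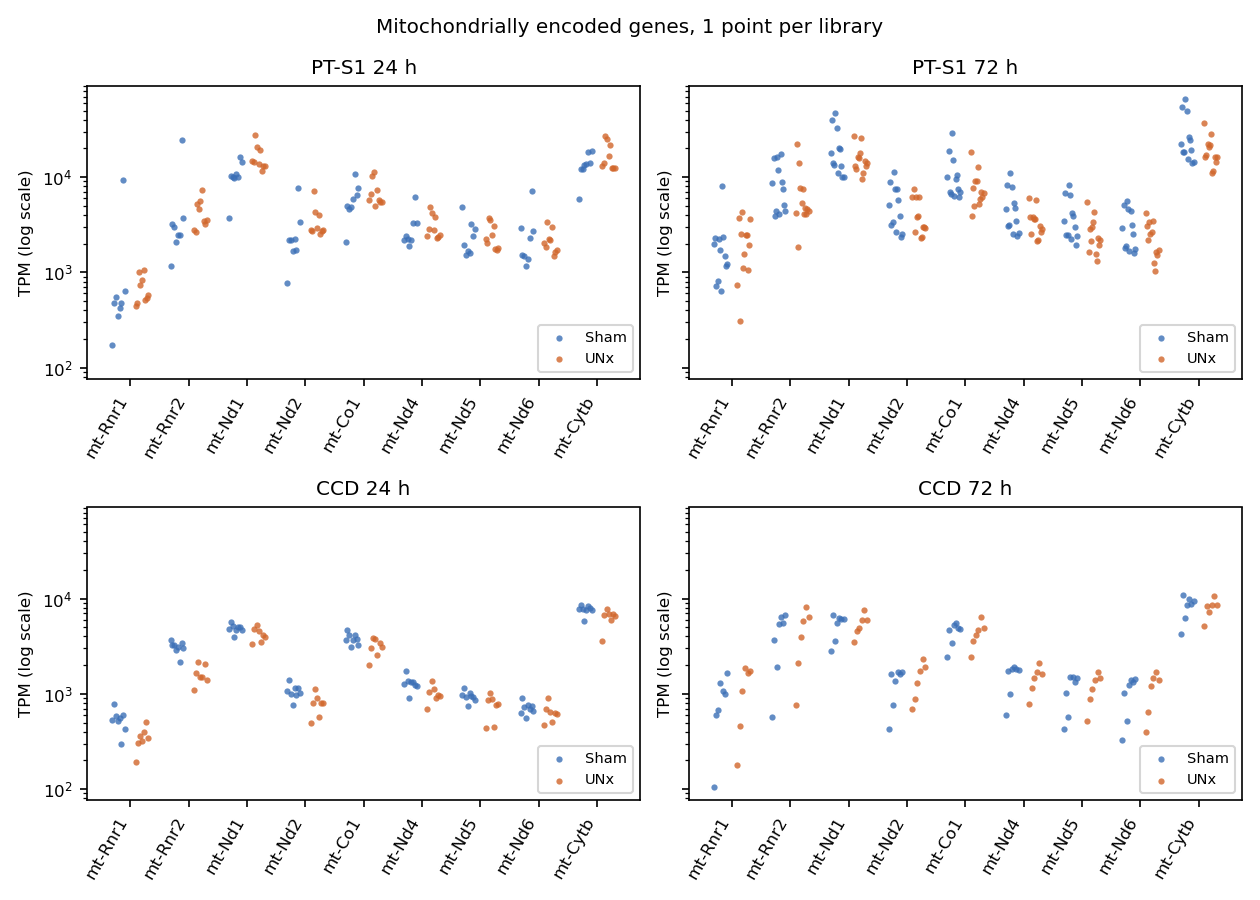
Level of the 9 detected mitochondrial genes (TPM, log axis), with 1 point per library, a panel for each segment and time, and a colour for each treatment. mt-Cytb and mt-Nd1 have the highest medians in each group, although mt-Rnr2 lies above both in some libraries, such as Sham3_2 of PT-S1 at 24 h. mt-Rnr1 lies lowest in most libraries, and the libraries of PT-S1 spread more widely than those of CCD at 24 h.

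The proportions of the protein genes were mostly steadier than their levels. Between libraries of the same animal the log2 SD of the share in the protein-gene TPM was below that of the level for all 7 genes in 3 of the 4 tables. In PT-S1 at 24 h this held for 5 of the 7, and the exceptions were mt-Nd5 (0.58 for the share and 0.41 for the level) and mt-Nd6 (0.54 and 0.51). At 72 h the highest library of PT-S1 exceeded the lowest by 5.87 times for the level of mt-Cytb but by 1.23 times for its share of the protein-gene TPM. For mt-Nd1 the corresponding values were 4.88 times for the level and 1.27 times for the share. In that table the log2 SD of mt-Nd1 between libraries of an animal was 0.42 for the level and 0.05 for the share. mt-Cytb made up 36.4% ± 1.35 (SD, n = 5 animals) of the protein-gene TPM in PT-S1 sham at 72 h and 37.6% ± 0.929 (n = 4) in CCD sham at 24 h. mt-Nd1 made up 26.6% ± 0.913 (n = 5) and 23.8% ± 0.639 (n = 4) of it in the same groups, and mt-Co1 made up 14.4% ± 0.805 (n = 5) and 18.7% ± 0.711 (n = 4). The mt-Nd1 share was thus higher and the mt-Co1 share lower in PT-S1 at 72 h than in CCD at 24 h. These groups differ in time as well as segment and come from tables that were normalized separately. At 24 h the mt-Nd1 share of the sham animals ran from 24.6% to 28.4% in PT-S1 and from 23.1% to 24.6% in CCD, with overlap. The mt-Co1 share ran from 12.2% to 15.6% in PT-S1 and from 18.1% to 19.6% in CCD, without overlap.

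At 24 h in PT-S1 the share of mt-Nd1 separated the treatments. It was 25.0%, 28.4% and 24.6% of the protein-gene TPM in the sham animals and 33.1%, 31.0%, 30.6% and 32.0% in the UNx animals, which did not overlap. At 72 h the same shares ran from 25.3% to 27.5% in 5 sham animals and from 26.4% to 30.3% in 5 UNx animals, which overlapped. At 24 h the shares of the other detected protein genes overlapped between the arms. Among several shares in so few animals, separation can arise by chance. The mt-Nd1 share was not tested, because it is a score made from the member genes. The lowest sham library at 24 h, Sham1_1, stood apart from the others in its correlation and in its proportions: its mt-Nd5, at 4840 TPM, exceeded its mt-Nd1, at 3710 TPM, and its mt-Nd1 share was 16.6%. The other sham libraries ran up to 29.4%, in Sham1_3, which was below the lowest UNx animal but above the lowest UNx library, UNx2_2 at 28.9%, so single libraries overlapped.

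**Figure D3:**
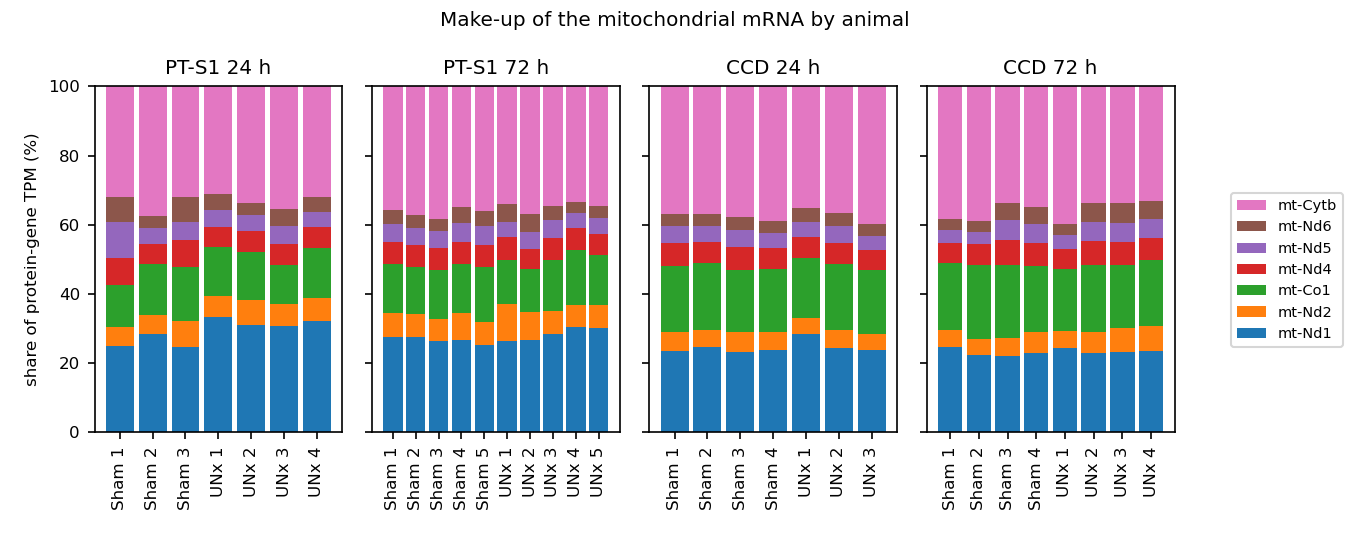
Share of each of the 7 detected protein genes in their summed TPM (percent) by animal, with groups by segment, time and treatment. mt-Cytb, mt-Nd1 and mt-Co1 make up most of each bar, and the bars differ less between animals than the levels do.

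Both ribosomal RNAs varied more than each protein gene between libraries of the same animal in 3 of the 4 tables, but not in CCD at 24 h. In PT-S1 at 24 h the log2 SD between libraries of an animal was 1.14 for mt-Rnr1, the RNA of the small mitochondrial ribosomal subunit, and 0.88 for mt-Rnr2, that of the large subunit. For the 7 protein genes in that table it ran from 0.28 for mt-Nd4 to 0.67 for mt-Nd2. In CCD at 24 h it was 0.36 for mt-Rnr1 and 0.31 for mt-Rnr2, and the protein genes ran from 0.19 for mt-Nd1 to 0.35 for mt-Nd5. Some of the highest values came from libraries that stood apart. Sham3_2 of PT-S1 at 24 h held mt-Rnr2 at 24361 TPM and mt-Rnr1 at 9326 TPM, where the median of the 8 sham libraries was 2762 TPM and 480 TPM. UNx1_2 and UNx2_2 of PT-S1 at 72 h held mt-Rnr2 at 21987 and 13938 TPM, where the other library of each animal, UNx1_1 and UNx2_1, held 4246 and 1832 TPM. The highest mt-Rnr1 of that table was in a library that did not stand apart, Sham4_2, at 8095 TPM, where the other libraries of that animal held 637 and 2347 TPM, and its mt-Rnr2 was at 17479 TPM.

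At 24 h after UNx the large ribosomal RNA had lower TPM in the collecting duct. Because the libraries were primed on polyadenylated RNA, less of this RNA and fewer adenine tails on it cannot be told apart. mt-Rnr2 was at 3444, 3071, 3072 and 2878 TPM in the sham animals and at 1382, 1820 and 1652 TPM in the UNx animals. The animals did not overlap, and neither did the single libraries, which lay between 2185 and 3665 TPM in sham and between 1102 and 2146 TPM in UNx. mt-Rnr2 fell by 0.97 on the log2(TPM + 1) scale (SE 0.11, 95% interval -1.22 to -0.71, limma with Benjamini-Hochberg adjusted p = 0.0139), to 0.511 times the sham level. It was the single member called at an adjusted p under 0.05. Of all genes tested there, 0.987% were called, and 0.661% were called as lower. The call was lost without UNx animal 1 (change -0.86, adjusted p = 0.0645) and when every gene above 0 in at least 3 animals was tested (change -0.97, adjusted p = 0.0848). It held without each sham animal in turn.

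mt-Rnr1 had the same sign without passing the test. Its sham animals were at 664, 549, 552 and 440 TPM and its UNx animals at 248, 341 and 417 TPM. Every UNx animal lay below every sham animal, as did 9.51% of all genes tested. The change was -0.73 (SE 0.19, limma adjusted p = 0.111). Both ribosomal RNAs therefore had non-overlapping animals, and their UNx means were 1618 ± 221 TPM (SD, n = 3) for mt-Rnr2 and 335 ± 84.3 TPM (n = 3) for mt-Rnr1.

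The protein genes of the collecting duct were nearer to sham at 24 h. All 7 had a change below 0, against 58.2% of all genes, and their animals overlapped in each case. The median change was -0.31, where the median of all genes was -0.04. mt-Nd2 had a change of -0.47 (SE 0.17, limma adjusted p = 0.224) and mt-Nd5 one of -0.40 (SE 0.16, adjusted p = 0.265). mt-Nd1 had a change of -0.19 (adjusted p = 0.448) and mt-Nd6 one of -0.17 (adjusted p = 0.527), so no protein gene passed the test. An unadjusted p under 0.05 was reached by 3 of the 7, and by 15.5% of all genes. mt-Nd1 lies directly after mt-Rnr2 and mt-Tl1 on the same strand, as in the junction shown above. The ratio of mt-Rnr2 to mt-Nd1 ran from 0.589 to 0.682 in the sham animals and from 0.338 to 0.425 in the UNx animals. This ratio holds the values of mt-Rnr2 itself and was not tested.

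**Figure D4:**
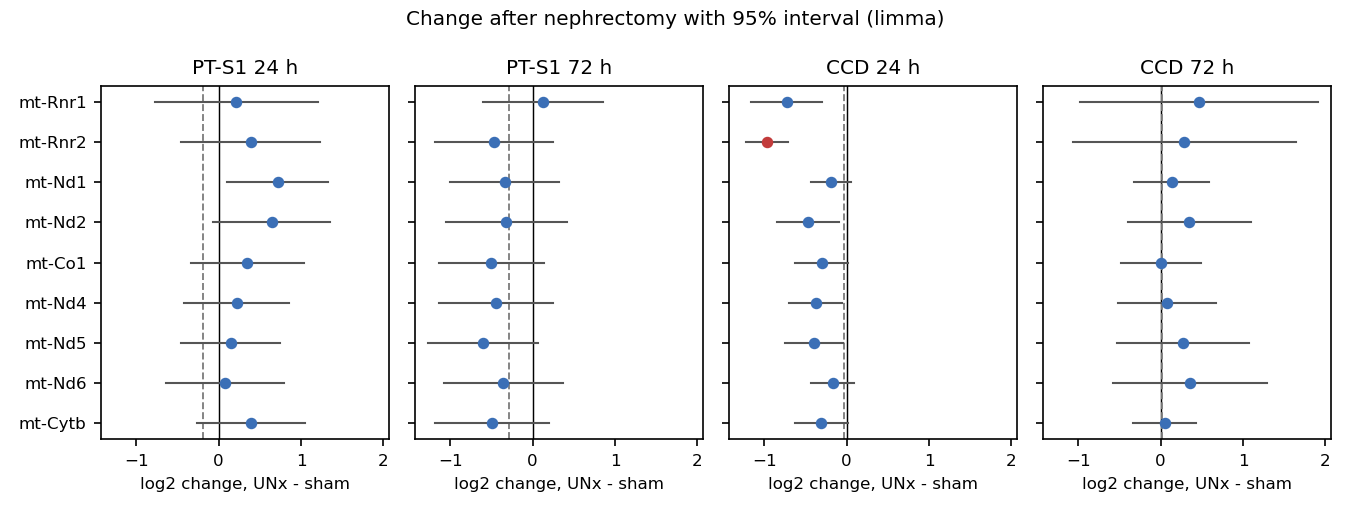
Change of each detected mitochondrial gene after UNx (log2 scale, points with 95% intervals from limma) in the 4 tables, with a dashed line at the median change of all genes. The mt-Rnr2 point of CCD at 24 h, at -0.97, is the single called one.

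The summed level of both ribosomal RNAs relative to the 7 protein genes largely repeated the mt-Rnr2 result in CCD at 24 h. There mt-Rnr2 held 3116 of a mean sum of 3668 TPM in sham and 1618 of 1953 TPM in UNx. The ratio was not tested. In CCD at 24 h the ratio was 0.182 ± 0.0152 (SD, n = 4 animals) in sham and 0.116 ± 0.0102 (n = 3) in UNx, and the sham animals lay between 0.162 and 0.198 and the UNx animals between 0.107 and 0.127. The CCD animals at 72 h lay between 0.107 and 0.279 with sham and 0.0988 and 0.309 with UNx. The PT-S1 animals lay between 0.0743 and 0.233 with sham and 0.0726 and 0.137 with UNx at 24 h, and between 0.0991 and 0.1996 with sham and 0.138 and 0.286 with UNx at 72 h. The groups overlapped in those 3 tables. The highest single libraries were Sham3_2 of PT-S1 at 24 h, at 0.558, and UNx1_2 of PT-S1 at 72 h, at 0.524, both of which stood apart from the rest of their table.

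**Figure D5:**
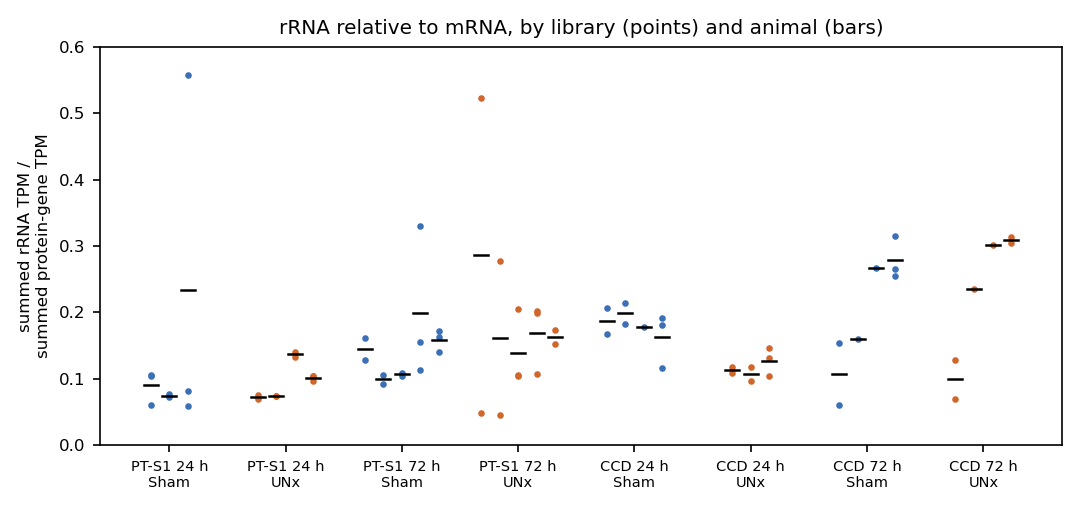
Ratio of the summed TPM of mt-Rnr1 and mt-Rnr2 to that of the 7 detected protein genes, by library and animal, in the 4 tables. Sham and UNx animals are separate in CCD at 24 h and overlap in the other tables, where single libraries reach 0.558 and 0.524.

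Other measures also differed between the arms of CCD at 24 h, some of them with overlap between animals. The 4 markers of the thick ascending limb summed to 1853, 5146, 2165 and 1237 TPM per sham animal and to 1722, 1790 and 1932 TPM per UNx animal. For this segment the highest single sham library was at 8474 TPM, where the median of the 8 sham libraries was 1638 TPM. The sham means of its single markers include that library. Slc12a1, which defines that segment, had a mean of 119.9 TPM in sham and 2.04 TPM in UNx, and Umod, another of its markers, had means of 1000.3 and 139 TPM. Kcnj1, a potassium channel gene on that list, carried most of the sum and had means of 1471 and 1672 TPM, and Cldn16 had 9.03 and 2.24 TPM. The 4 markers of the last segment of the proximal tubule summed to 79.6 to 91.9 TPM in sham and 53.8 to 70.9 TPM in UNx, which did not overlap. Cyp7b1 carried most of that sum, with means of 68.6 TPM in sham and 60.8 TPM in UNx, while the other 3 markers had means of 4.70 to 7.13 TPM and 0.302 to 2.37 TPM. The 5 principal cell markers summed to 15713 to 42730 TPM in sham and 39196 to 58909 TPM in UNx. The number of genes at 1 TPM or more was 13671 to 13782 in the sham animals and 13256 to 13546 in the UNx animals, which did not overlap. The part of these measures in the mt-Rnr2 result was not tested. In tissue pieces of this kind fewer cells of a type and less RNA per cell cannot be told apart.

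In PT-S1 at 24 h the changes of the mitochondrial genes lay above those of most genes, and no gene was called. Of the 11874 genes tested there limma called 0%, and 17.8% had an unadjusted p under 0.05, as did 1 of the 7 protein genes and neither ribosomal RNA. All 7 protein genes had a change above 0 (4 of 7 with quantile normalization), with a median of 0.35, while the median of all genes was -0.19 and 70.9% of genes lay below 0. mt-Nd1 had the highest change, 0.72 (SE 0.28, unadjusted p = 0.0258, limma adjusted p = 0.255). Its sham animals were at 7976, 10217 and 13478 TPM and its UNx animals at 14492, 24274, 16520 and 12508 TPM. The highest sham animal lay above the lowest UNx animal, so the groups overlapped. mt-Nd2 had a change of 0.64 (SE 0.32, adjusted p = 0.307), and the lowest changes were 0.15 for mt-Nd5 (adjusted p = 0.769) and 0.08 for mt-Nd6 (adjusted p = 0.893).

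The ribosomal RNAs of PT-S1 at 24 h had changes of 0.39 for mt-Rnr2 (SE 0.38, limma adjusted p = 0.564) and 0.21 for mt-Rnr1 (SE 0.45, adjusted p = 0.794). Their arithmetic means went the other way, at 4980 ± 4494 TPM (SD, n = 3) in sham and 4359 ± 1637 TPM (n = 4) in UNx for mt-Rnr2, since sham animal 3 was at 10168 TPM. mt-Rnr1 means were 1421 ± 1783 TPM in sham and 704 ± 235 TPM in UNx, and those of mt-Nd6 were 2438 ± 1444 and 2236 ± 558 TPM. Without sham animal 3 the mt-Rnr1 change was 0.86, and without sham animal 1 it was -0.13. Without the 2 libraries that stood apart the protein genes had changes from 0.16 to 0.66. mt-Tl1 had a change of -0.55 (adjusted p = 0.417), which rests on the 1 library where it was above 0.

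In PT-S1 at 72 h the changes of the protein genes lay below 0, as did those of most genes, although under median-ratio scaling 3 of the 7 lay above 0. Of the 11886 genes tested limma called 0%, and 20.5% had an unadjusted p under 0.05, among them no mitochondrial gene. The median over the 7 protein genes was -0.45, where the median of all genes was -0.29 and 83% of genes lay below 0. mt-Nd5 had a change of -0.60 (SE 0.31, limma adjusted p = 0.264), mt-Co1 one of -0.50 (SE 0.30, adjusted p = 0.302), mt-Nd1 one of -0.34 (adjusted p = 0.469) and mt-Nd2 one of -0.32 (adjusted p = 0.533). mt-Nd6 had a change of -0.35 (adjusted p = 0.487). The mt-Nd5 sham animals were at 5116, 2468, 7440, 3426 and 2446 TPM and the UNx animals at 3531, 2487, 3547, 1721 and 2067 TPM, and they overlapped. Of the ribosomal RNAs, mt-Rnr2 had a change of -0.47 (SE 0.33, adjusted p = 0.365) and mt-Rnr1 one of 0.12 (SE 0.34, adjusted p = 0.826).

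In both UNx libraries that stood apart at 72 h the proportions of the mitochondrial genes differed from those of the other library of their animal. UNx1_2 held mt-Co1 at 3877 TPM and mt-Nd2 at 7416 TPM, and UNx1_1 held mt-Co1 at 18204 TPM and mt-Nd2 at 6171 TPM. UNx2_2 held mt-Co1 at 4991 TPM and mt-Nd2 at 6253 TPM, and UNx2_1 held 7659 and 2622 TPM. mt-Co1 was thus below mt-Nd2 in these libraries and above it in their partners. Without them the protein genes had changes from -0.47 to -0.22, mt-Rnr1 had a change of -0.41 and the median of all genes was -0.02. Scaling each table by median ratios, which brought the median of all genes to 0.02, moved the protein-gene changes at 72 h to between -0.21 and 0.07 and those at 24 h to between 0.32 and 0.95.

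In CCD at 72 h no mitochondrial gene was called or had an unadjusted p under 0.05, where 0.595% of the 13770 genes tested were called and 7.49% had such a p. The median change of the protein genes was 0.13 and that of all genes was 0.01. mt-Nd6 had a change of 0.36 (SE 0.42, limma adjusted p = 0.928) and mt-Nd2 one of 0.35 (SE 0.33, adjusted p = 0.902), while mt-Cytb had one of 0.05 (adjusted p = 0.980) and mt-Co1 one of 0.00 (adjusted p = 0.999), with a 95% interval for mt-Co1 from -0.48 to 0.49. mt-Rnr2 had a change of 0.29 (SE 0.61, adjusted p = 0.966) and mt-Rnr1 one of 0.47 (SE 0.65, adjusted p = 0.941). The mt-Rnr1 animals were at 354, 670, 1287 and 1247 TPM in sham and at 319, 1077, 1847 and 1689 TPM in UNx. Animal 1 was the lowest of each arm, and the groups overlapped.

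The effects of UNx in 2 segments or at 2 times were then subtracted from each other and the difference was tested in limma. The labels number the animals of both segments alike. Whether a number stands for the same mouse in both segments is unknown, and the fit treated all animals as independent. Between segments at 24 h, where 0.137% of 10988 genes were called and 15.4% had an unadjusted p under 0.05, no mitochondrial gene passed. The difference for mt-Rnr2 was 1.36 (PT-S1 minus CCD, SE 0.44, unadjusted p = 0.00808, adjusted p = 0.206), for mt-Nd2 it was 1.11 (SE 0.40, adjusted p = 0.234) and for mt-Nd1 it was 0.90 (SE 0.30, adjusted p = 0.215). For mt-Rnr1 the difference was 0.94 (SE 0.55, adjusted p = 0.415). Without sham animal 3 of PT-S1 at 24 h, which held the library Sham3_2, mt-Rnr2 passed at 1.83 (adjusted p = 0.0298) and mt-Rnr1 at 1.59 (adjusted p = 0.0497). Each of the 14 animals was left out in turn, and no mitochondrial gene passed when any animal but that one was dropped. Without the libraries that stood apart mt-Rnr2 passed at 1.53 (adjusted p = 0.0360). The share of all genes called in these refits is not given here. These tests share the CCD libraries of the mt-Rnr2 result above.

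The other 3 tests of a difference called 0% of genes each. Between times in CCD (24 h minus 72 h), mt-Rnr2 had a difference of -1.26 (SE 0.73, limma adjusted p = 0.968), where 4.96% of genes had an unadjusted p under 0.05. Between times in PT-S1 the difference for mt-Nd1 was 1.05 (SE 0.46, adjusted p = 0.998), where 3.33% of genes had an unadjusted p under 0.05. Between segments at 72 h the largest difference in size was that of mt-Nd5, at -0.87 (SE 0.51, adjusted p = 0.495), where 9.33% of genes had an unadjusted p under 0.05.

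The nuclear genes whose products act with the mitochondrial ones were read from lists chosen with earlier results of these data known. Of 75 nuclear subunits of the respiratory chain and ATP synthase, 67 had a change above 0 in PT-S1 at 24 h, 56 in PT-S1 at 72 h, 56 in CCD at 24 h and 73 in CCD at 72 h. Of all genes tested, 70.9%, 83%, 58.2% and 47.8% lay below 0 in that order, with medians of -0.19, -0.29, -0.04 and 0.01. The medians of the subunits were 0.20, 0.33, 0.05 and 0.25. Each stayed above 0 under the 3 other scalings tried (median ratios, quantiles, and TPM rescaled without the mitochondrial genes). The value of PT-S1 at 72 h moved most, to 0.086 with 48 of 75 above 0 after quantile normalization and to 0.72 with 73 of 75 above 0 by median ratios. In PT-S1 at 72 h and in CCD at 24 h this median lay above 0 and that of the mitochondrial protein genes lay below 0. Sdhc, a subunit of complex II, which has no mitochondrially encoded part, rose in CCD at 72 h by 0.68 (SE 0.11, limma adjusted p = 0.0221), from 184 ± 22.0 TPM to 294 ± 21.2 TPM (SD, n = 4 each). It was the single subunit called in the 4 tables, and 0.581% of all genes were called as higher at that place and time. There, 13 of the 75 had UNx animals all above the sham animals, as did 3.23% of all genes. The list took up to 28.2% of the TPM of a library, in UNx1_2 of PT-S1 at 72 h, where the median of the 12 UNx libraries was 9.27%.

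No gene for the mitochondrial ribosome or for mitochondrial gene expression was called in any table. The lists held 14 tested genes in PT-S1 and 15 in CCD for transcription and DNA maintenance, 22 for RNA processing and stability, and 7 nuclear regulators. The 78 proteins of the mitochondrial ribosome, which join mt-Rnr1 and mt-Rnr2, had median changes of 0.12 and -0.08 in PT-S1 and 0.01 and 0.03 in CCD, at 24 h and 72 h. The median of PT-S1 at 72 h was 0.05 after quantile normalization and 0.30 when tables were scaled by median ratios. In CCD at 24 h, where mt-Rnr2 fell, 41 of them lay above 0 and 37 below. Polrmt, the mitochondrial RNA polymerase, was at 45.5 ± 13.1 TPM (SD, n = 3) in sham and 29.5 ± 5.24 TPM (n = 4) in UNx in PT-S1 at 24 h (limma adjusted p = 0.259), and at 30.8 ± 4.42 TPM (n = 4) and 41.6 ± 4.55 TPM (n = 3) in CCD at 24 h (adjusted p = 0.159). Its animals did not overlap in either table, and the directions were opposite. Non-overlapping lower animals were found for 12.1% of all genes in PT-S1 at 24 h and non-overlapping higher ones for 5.55% in CCD at 24 h. Fastkd1, of a family of mitochondrial RNA-binding proteins, had a change of -0.47 in PT-S1 at 24 h (adjusted p = 0.264).

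Ppargc1a, a coactivator that promotes mitochondrial biogenesis, had changes below 0 in all 4 tables without passing the test. So did 70.9% and 83% of all genes in PT-S1 and 58.2% and 47.8% in CCD, at 24 h and 72 h, by sign alone. In CCD at 24 h Ppargc1a was at 165 ± 20.7 TPM (SD, n = 4) in sham and 117 ± 11.6 TPM (n = 3) in UNx (change -0.48, SE 0.11, limma adjusted p = 0.0819). Its animals did not overlap there, as for 9.51% of all genes in that direction. In PT-S1 at 72 h its change was -0.75 (adjusted p = 0.237), in PT-S1 at 24 h it was -0.50 (adjusted p = 0.283) and in CCD at 72 h it was -0.21 (adjusted p = 0.713). Slirp, which stabilizes mitochondrial messenger RNAs, was at 471 ± 30.4 TPM (SD, n = 5) in sham and 813 ± 328 TPM (n = 5) in UNx in PT-S1 at 72 h (change 0.57, adjusted p = 0.237), with no overlap between animals, as for 0.236% of genes in that direction. Nrf1, a transcription factor for nuclear genes of the respiratory chain, had a change of -0.36 in CCD at 72 h (adjusted p = 0.756).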

How the data were processed

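Per the submitters' processing notes, the authors used STAR and RSEM 1.3.3 with the GRCm39 build and deposited TPM values per gene, 1 table for each segment and time. The settings for reads that fit several genes and for strand are not given in the sources used here. All 69 columns were used. The names of 47 matched a single sample, and those of the other 22 matched a group and animal only. Sequences and gene order came from GENCODE M21 (GRCm38) and were joined by gene identifier, so its coordinates are not those of the authors' build. Libraries of an animal were averaged as log2(TPM + 1), with a pseudocount of 1, which understates changes of low genes. Tests covered the genes whose mean over animals was 1 TPM or higher, with limma 3.58.1 in R 4.3.3 (moderated, with trend, two-sided), with Benjamini-Hochberg adjustment over all genes tested and a threshold of 0.05. The code was tested on simulated data. P-values measure the spread between animals. Named genes were the detected members, per table the 2 protein genes with the highest and the 2 with the lowest change, mt-Nd6, both ribosomal RNAs, the transfer RNA with the highest mean, and the 2 gene expression factors with the smallest p. The members and lists were chosen with earlier results of these data known.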

Additional observations from a re-analysis of the deposited data

Results flagged for a closer look

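Of 66 groups of animals tested for a single animal far from the others, 1 was flagged, and chance flags about 1 in 20. It was mt-Co1 in PT-S1 at 24 h after UNx, where animal 2 was at 10769 TPM and the other 3 animals were at 6144, 6148 and 5576 TPM. Both libraries of that animal were high, at 10362 and 11176 TPM, and its mt-Cytb and mt-Nd1 levels were the highest of its group as well.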

How the results depend on the processing

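The mt-Rnr2 change in CCD at 24 h stayed between -1.06 and -0.86 over 19 alternatives and was past the threshold in 16 of them (adjusted p from 0.00102 to 0.0458). It was lost with the broader filter (0.0848), without UNx animal 1 (0.0645) and with the animal number as a replicate block (0.139). That block called 81 genes in PT-S1 at 24 h, 0 genes and 0 mitochondrial genes in CCD at 24 h and 3 genes in CCD at 72 h. The deviations of animals with the same number had correlations from -0.37 to 0.33, and those of animals with different numbers from -0.41 to 0.36. With so few animals these values cannot decide whether the numbers pair them. The block changed no other call of a mitochondrial gene.

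Genes called in PT-S1 at 24 h, 0 in the reported fit, were 2 with the broader filter, 1 each with quantile normalization, under median-ratio scaling and once the libraries of low correlation were dropped, 85 with every library as a replicate, 1426 with array weights and 100 with a random effect of animal. They were 0 to 8 when each animal was left out in turn. In PT-S1 at 72 h they were 18 with every library, 10 with the random effect, 1346 with array weights and 1 without the libraries of low correlation. In CCD at 24 h, 136 in the reported fit, they were 1 with the broader filter, which also called 0 mitochondrial genes, 1027 with every library, 485 with the random effect and 7 to 78 when each animal was left out in turn, with 0 to 1 mitochondrial genes. In CCD at 72 h, 82 in the reported fit, they were 7 with the broader filter, 39 with a minimum mean TPM of 5, 150 with every library, 129 without the library of low correlation and 8 to 73 when each animal was left out. Array weights called 2 mitochondrial genes in PT-S1 at 24 h, mt-Nd1 and mt-Nd2, where they called 1426 of all 11874 genes tested. They called 6 mitochondrial genes for the difference between segments at 24 h and 1 for the difference between times in PT-S1. The difference between segments called 1 mitochondrial gene without the libraries of low correlation and 0 to 2 when each animal was left out. The share of all genes called in these difference fits is not given here.

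Signs of small changes reversed. In PT-S1 at 24 h, mt-Nd6 was at -0.026 and mt-Nd5 at -0.037 with quantile normalization, mt-Nd6 at -0.048 with every library and at -0.054 with the random effect, and mt-Rnr1 at -0.27 with log2 of the mean TPM. As animals were dropped in turn, mt-Nd6 ran from -0.25 to 0.48, mt-Nd5 from -0.077 to 0.31 and mt-Rnr1 from -0.13 to 0.86. In PT-S1 at 72 h, mt-Rnr1 was at -0.15 with quantile normalization and -0.41 without the libraries of low correlation, and between -0.14 and 0.36 as animals were dropped in turn, while median-ratio scaling put mt-Nd1 at 0.052, mt-Nd2 at 0.069 and mt-Nd6 at 0.035. In CCD at 72 h, mt-Co1 was at -0.016 with median-ratio scaling, -0.048 with every library, -0.032 with the random effect, -0.0054 with log2 of the mean TPM and -0.099 with array weights. mt-Cytb was at -0.047 with quantile normalization, -0.0095 with every library and -0.051 with array weights, and mt-Rnr2 at -0.087 with array weights. When each animal was left out, mt-Co1 ran from -0.13 to 0.17, mt-Cytb from -0.048 to 0.14, mt-Rnr1 from -0.035 to 1.06 and mt-Rnr2 from -0.079 to 0.82. The cause was not tested. Depth is unknown, so no detection limit was set for the genes listed at 0.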
